A study of Mus musculus with 12 samples.

Results

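Addition of Dexa at 200 mg to dual immune checkpoint blockade (dICB, antibodies to PD-1 and CTLA4) was examined in primary tumours of a mouse model of hepatocellular carcinoma, by comparing the 3 samples titled dICB with Dexa 200 mg with the 3 titled dICB and no Dexa, 6 of the 12 samples in all. The other 6 samples, 3 from isotype antibody and 3 from dICB with Dexa at 10 mg, entered the model to share its estimate of spread and are shown as levels. Each sample was total RNA of formalin-fixed, paraffin-embedded tumour, counted with probes for 770 genes, most of them of the immune system. All 6 compared tumours had received both antibodies, and no group had Dexa alone. The series title names corticosteroid premedication as its subject, while the labels give Dexa only by that name and in mg, with no body weight, schedule, mouse strain, sex, age or way of raising the tumour. The labels do not say whether each replicate was its own animal, and p-values here cover only sample-to-sample spread, possibly technical.

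Corticosteroids bind the glucocorticoid receptor, a nuclear receptor that enters the nucleus on binding. There it switches on genes with its own DNA elements and holds down many inflammatory genes driven by the transcription factors NF-kB and AP-1. In macrophages and dendritic cells the drugs are known to lower cytokines such as interleukin-1 and to favour scavenging, anti-inflammatory states. They also lower lymphocyte activation, which is why their use beside checkpoint antibodies is a clinical question. Nr3c1, the gene of the receptor, was not analysed here.

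Summed over genes, the dICB samples held 252994 to 428944 counts and the 200 mg samples 262314 to 425712. The background limit of a sample, the mean of its negative control probes plus 2 standard deviations, lay between 18.1 and 33.8 counts. Genes averaging 20 counts or more across the 12 samples were tested, 635 in number, and 529 of them lay above that limit in all 6 samples. The tissue label could be checked only in part. Of 19 hepatocyte genes on the panel, 9 did not reach the minimum, C8a, C9, Mbl2 and Hamp among them. Apoe held 12055 to 37917 normalised counts in dICB and 13658 to 17710.4 at 200 mg, which by itself does not identify hepatocytes. A code in the labels, whose meaning is not stated, read ICI10 for all dICB samples and for replicates 1 and 2 at 200 mg, and ICI7 for replicate 3 at 200 mg. Values within ICI10 (2 samples at 200 mg against 3 of dICB) are therefore given beside the leading genes.

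The dICB samples differed among themselves more than the 200 mg samples did. Log2 counts of the 200 mg samples correlated with each other at 0.967 to 0.974. Replicate 1 of dICB correlated with the other dICB samples at 0.895 and 0.900, and replicates 2 and 3 of dICB with each other at 0.956. Replicate 2 of dICB was closer to the 200 mg samples, at 0.974 to 0.981, than to either sample of its own group. Replicate 1 stood apart in neutrophil and inflammatory genes, and values are given with it (3 against 3) and without it (3 against 2).

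No gene passed the threshold, an adjusted p of 0.05 by edgeR's quasi-likelihood test, with or without dICB replicate 1 (0 of 635, 0% in both; smallest adjusted p 0.267 and 0.463). At an unadjusted p under 0.05 stood 54 genes with all samples, 8.50% of those tested, with 18 higher (2.83%) and 36 lower (5.67%) at 200 mg. Leaving out dICB replicate 1 gave 34 (5.35%), and the balance turned, with 25 higher (3.94%) and 9 lower (1.42%). A log2 fold change of at least 1 in size was seen in 35 genes (5.51%) and, without that replicate, in 11 (1.73%). The samples of the compared groups did not overlap in 56 genes (8.82%), 32 higher (5.04%) and 24 lower (3.78%). With only 2 dICB samples there were 106 such genes (16.7%), 62 higher (9.76%) and 44 lower (6.93%). Any higher value at all was seen in 46.9% of genes, or 52.3% without that replicate, the background for the list counts that follow. The 2 sets shared 18 genes, 33.3% of the first and 52.9% of the second. DESeq2 passed 3 genes in each version: Ccl17, Ccl19 and Mmp9 with all samples, and Ccl17, Ccl19 and Chil3 without dICB replicate 1. With dICB replicate 2 left out, the dICB sample most like the 200 mg group, edgeR passed 8 genes, among them Mmp9, Vegfa, Il11, Cxcl2, Cxcl5, Il6 and Lcn2, all lower. Levels below are normalised counts in replicates 1, 2 and 3 in that order, changes are log2 fold changes ± SE of 200 mg minus dICB, and "higher" or "lower" names a measured difference that did not pass.

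Chemokines of the CC family, small secreted proteins that draw leukocytes to tissue, held 8 of the 18 genes that were higher at an unadjusted p under 0.05. Of 20 tested, 14 were higher, with a median log2 fold change of 0.65, or 0.58 without dICB replicate 1, where the medians over all tested genes were -0.020 and 0.016. With all samples, unadjusted p was under 0.05 in 8 as higher and 2 as lower (2.83% and 5.67% of all tested genes). Without dICB replicate 1 it was so in 8 as higher and 0 as lower (3.94% and 1.42% of all). The 200 mg samples lay wholly above the dICB samples in 6 of the 20, against 5.04% of all genes. Those 6 were Ccl6, Ccl11, Ccl12, Ccl17, Ccl19 and Ccl22.

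Ccl17, a dendritic cell product that draws T cells bearing the receptor Ccr4, stood at 54.4, 93.7 and 67.0 normalised counts in dICB and at 175, 404 and 202 at 200 mg. The lowest 200 mg sample was above the highest dICB sample, and replicate 2 was the highest at 200 mg. Its log2 fold change was 1.85 ± 0.45 (adjusted p = 0.267), 1.68 ± 0.49 without dICB replicate 1 and 2.00 within ICI10. At 10 mg the samples held 105, 291 and 100.1, and under isotype 42.2, 57.7 and 47.1. The 10 mg samples too lay above the dICB samples, and the isotype samples lay within or below them.

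Ccl22, which shares that receptor and lies near Ccl17 on chromosome 8, held 58.8, 102 and 49.1 in dICB and 129, 134 and 108 at 200 mg (0.80 ± 0.30, or 0.69 ± 0.34 without dICB replicate 1). Again the groups did not overlap, though the gap between dICB replicate 2 and 200 mg replicate 3 was small. Ccr4 itself did not reach the minimum for testing and lay below the background limit in all 6 samples.

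Ccl19, made by stromal cells of lymphoid tissue and by mature dendritic cells to draw cells bearing Ccr7, had 98.0, 91.2 and 52.1 in dICB and 168, 179 and 150.3 at 200 mg. The 200 mg samples lay close together and above every dICB, 10 mg (70.5 to 96.3) and isotype (57.2 to 65.0) sample. The log2 fold change was 1.03 ± 0.24 (adjusted p = 0.267) with all samples and 1.20 ± 0.28 (adjusted p = 0.463) without dICB replicate 1, and it was 1.10 within ICI10.

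The promoters of these 3 chemokines are shown because 2 of them lead the higher genes and the third is a neighbour of Ccl17 that shares its receptor. Each run covers 250 bases before to 50 after the gene's start in RefSeq's annotation of GRCm38.p6, with Ccl17 at chr8:94810203-94810502 (plus strand), Ccl22 at chr8:94745434-94745733 (plus strand) and Ccl19 at chr4:42756316-42756615 (minus strand). Capitals mark the matches to 7 motifs searched on both strands.
Ccl17: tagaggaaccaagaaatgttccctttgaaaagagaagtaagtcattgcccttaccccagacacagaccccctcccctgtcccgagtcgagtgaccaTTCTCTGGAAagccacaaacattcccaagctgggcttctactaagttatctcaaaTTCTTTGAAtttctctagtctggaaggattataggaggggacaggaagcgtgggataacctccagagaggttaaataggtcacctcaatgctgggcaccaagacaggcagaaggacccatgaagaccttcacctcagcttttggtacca
Ccl22: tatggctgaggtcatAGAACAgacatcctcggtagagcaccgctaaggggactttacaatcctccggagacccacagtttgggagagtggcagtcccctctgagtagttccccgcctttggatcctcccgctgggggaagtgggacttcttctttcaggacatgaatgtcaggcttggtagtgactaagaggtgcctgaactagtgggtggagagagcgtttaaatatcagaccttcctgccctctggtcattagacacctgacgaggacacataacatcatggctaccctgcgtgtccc
Ccl19: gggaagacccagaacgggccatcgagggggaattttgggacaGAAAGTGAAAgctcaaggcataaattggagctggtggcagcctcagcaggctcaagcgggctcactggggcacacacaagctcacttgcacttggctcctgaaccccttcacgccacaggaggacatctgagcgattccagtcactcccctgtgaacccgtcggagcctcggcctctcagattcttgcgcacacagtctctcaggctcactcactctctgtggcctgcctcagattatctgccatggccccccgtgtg
The motifs were TGANTCA (AP-1), AGAACA (part of the glucocorticoid receptor element), a kB-like motif of GGG and TTCC 3 bases apart, GGAANTTCC (a kB-like core), TTCNNNGAA (STAT), a STAT6 motif of TTC and GAA 4 bases apart, and an interferon element-like motif of GAAA and GAAA 2 bases apart. Ccl17 held a STAT match starting 99 bases and a STAT6 match starting 154 bases before the gene's start, Ccl22 an AGAACA match at 235 bases and Ccl19 an interferon element-like match at 208 bases, and no matches overlapped. Over all 32851 promoters of that length the shares were 8.30% for the STAT motif, 6.95% for the STAT6 motif, 19.0% for AGAACA and 3.44% for the interferon element-like motif. For the motifs with no match here they were 7.81% for AP-1, 5.56% for the kB-like motif and 0.928% for its core. Over the 579 promoters of tested genes, the set these genes come from, the shares were 11.1% for STAT, 7.77% for STAT6, 18.0% for AGAACA, 7.08% for the interferon element-like motif, 10.9% for AP-1, 11.2% for the kB-like motif and 3.97% for its core. These letters describe the windows and say nothing of a bound factor.

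Other CC chemokines lie on chromosome 11, where RefSeq orders 11 of them, and they are given in that order. The first stretch runs Ccl2, Ccl7, Ccl11, Ccl12, Ccl8 and Ccl1, monocyte and eosinophil attractants for the most part, and all 6 were higher, at 0.51, 1.08, 1.11, 1.15, 1.26 and 0.67. Their values with dICB replicate 1 left out were 0.71, 1.21, 1.19, 0.93, 1.13 and 0.46. The second stretch runs Ccl5, Ccl9, Ccl6, Ccl3 and Ccl4. There the myeloid chemokines Ccl9 (0.74, or 1.17 without dICB replicate 1) and Ccl6 (0.67 and 0.75) were higher, Ccl5 was near no difference (0.16 and 0.060), and Ccl3 (-2.45 and -0.22) and Ccl4 (-1.12 and -0.11) were lower, with sizes that shrank on leaving out dICB replicate 1. Off chromosome 11, with all samples and then without dICB replicate 1, Ccl24 (0.62 and 0.42) and Ccl27a (0.027 and 0.059) were higher. Lower there were Ccl20 (-0.35 and -0.18), Ccl21a (-0.23 and -0.49), Ccl26 (-0.061 and -0.20) and Ccl25 (-0.042 and -0.0010). Ccl1, Ccl2, Ccl4, Ccl5, Ccl6, Ccl7 and the members off chromosome 11 just given were named after their values were seen.

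**Figure D1:**
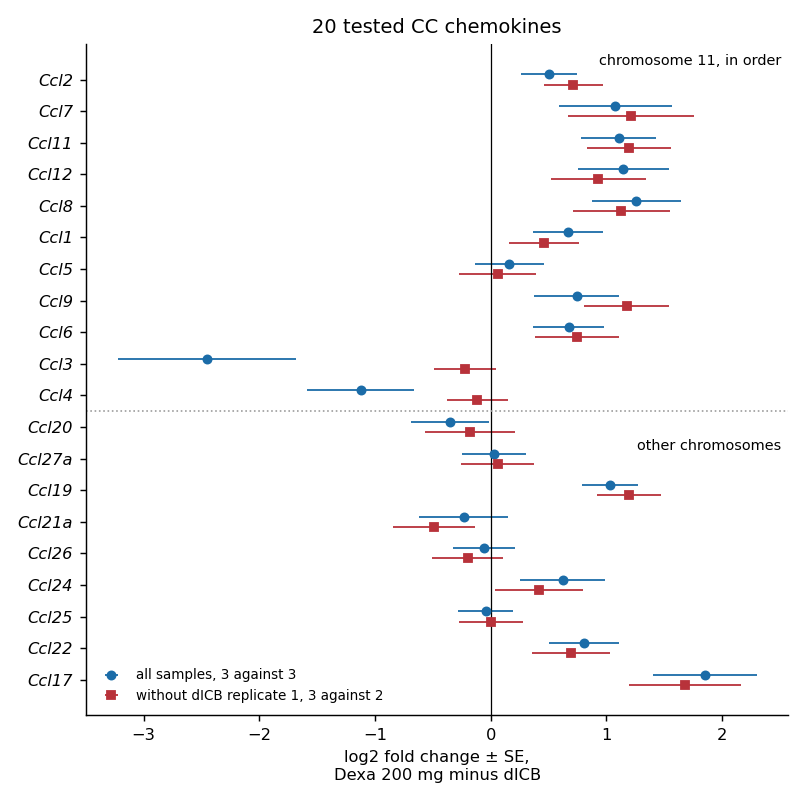
Log2 fold change of 200 mg minus dICB (x axis) with its SE for the 20 tested CC chemokines (rows), with all samples (blue circles) and without dICB replicate 1 (red squares). Chromosome 11 members come first, in chromosomal order. Ccl3 and Ccl4 move towards 0 without dICB replicate 1, while Ccl7, Ccl8, Ccl11, Ccl17 and Ccl19 stay above 1 in both.

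Ccl11, the eosinophil attractant eotaxin, stood at 152, 110.0 and 153 in dICB and 233, 296 and 366 at 200 mg. The groups did not overlap, and the sample coded ICI7, replicate 3, was the highest. Its log2 fold change was 1.11 ± 0.32 (adjusted p = 0.365), 1.19 ± 0.36 without dICB replicate 1 and 0.93 within ICI10.

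Ccl8 held 526, 772 and 614 in dICB and 758, 1191 and 2623 at 200 mg, where replicate 1 fell inside the dICB range. Replicate 3 at 200 mg carried much of the difference: the value was 1.26 ± 0.39 with it and 0.61 without it. Ccl7 overlapped in the same way, at 88.2, 75.7 and 61.1 against 120.1, 74.7 and 282 (1.08 ± 0.49, 0.38 without replicate 3). Ccl12, a close relative of Ccl2, did not overlap, at 35.7, 55.4 and 68.5 against 80.9, 91.6 and 178 (1.15 ± 0.39, 0.71 without replicate 3). Replicate 3 is the only 200 mg sample coded ICI7, and within ICI10 these genes were at 0.61, 0.38 and 0.71, in the order named. Whether the code or that single sample sets the gap cannot be told apart.

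Ccr2, the receptor through which monocytes answer Ccl2, Ccl7 and Ccl12, had 283, 336 and 284 in dICB and 457, 493 and 708 at 200 mg. The groups did not overlap, and replicate 3 was again the highest (0.87 ± 0.29, adjusted p = 0.365). It was at 0.84 ± 0.34 with dICB replicate 1 left out and within ICI10 at 0.66. Over the 11 tested chemokine receptors 5 were higher, or 6 without dICB replicate 1, with medians of -0.19 and 0.042.

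**Figure D2:**
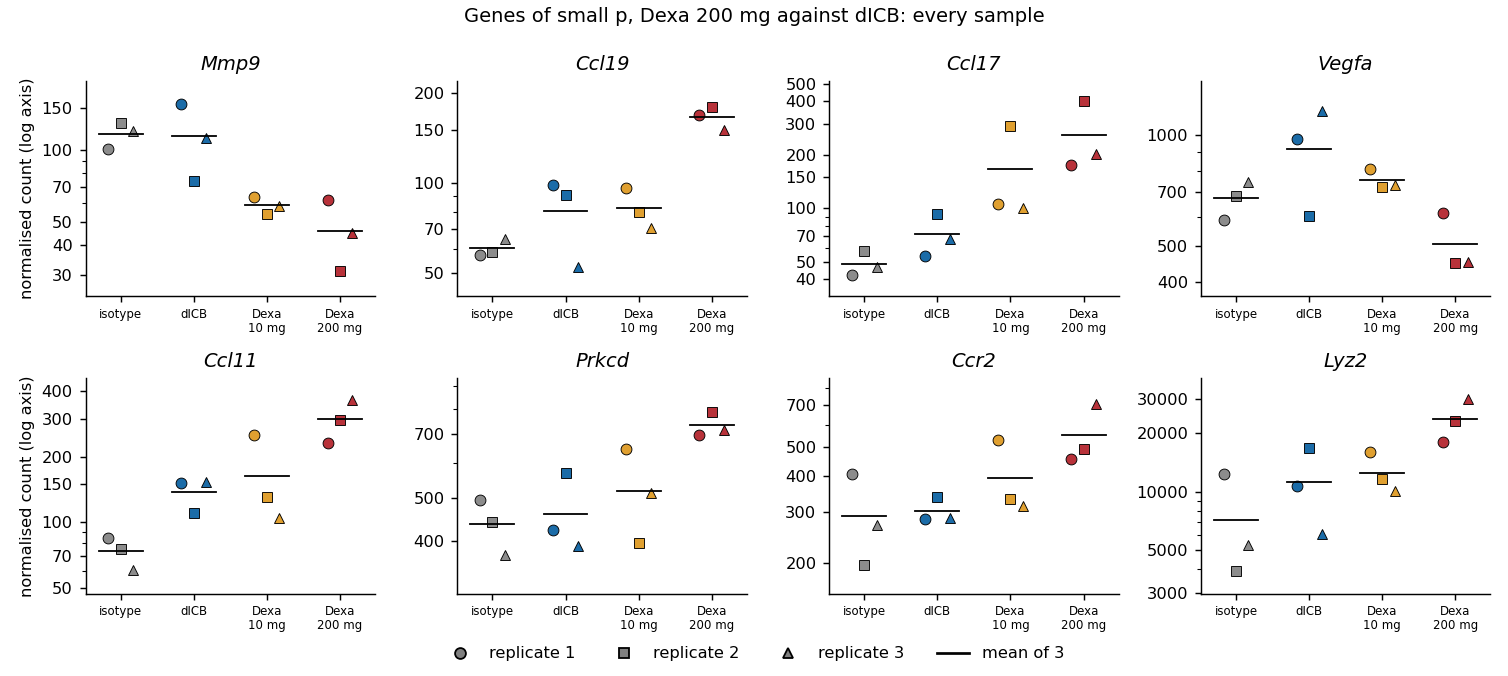
Normalised counts (y axis, log scale) of 8 genes in every sample of the 4 groups (x axis), Dexa groups having dICB too, with bars at group means. Mmp9 and Vegfa were lower at 200 mg than in dICB and the other 6 higher, and in all but Vegfa the samples of the 2 groups did not overlap.

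Macrophage genes formed the second group that was mostly higher. Of 27 tested members 23 were higher with all samples and 25 without dICB replicate 1, with medians of 0.31 and 0.26, and 0 passed. The 200 mg samples lay wholly above dICB in 4 members (5.04% of all tested genes) and wholly below in 0 (3.78% of all). Without dICB replicate 1 they lay so in 8 and 1 members (9.76% and 6.93% of all). The summed level of the 27 was 14672 to 30862 in dICB and 32552 to 45552 at 200 mg, so the groups did not overlap in it. In bulk tumour RNA more cells of a type and more RNA per cell, or fewer and less, cannot be told apart.

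Lyz2, lysozyme of macrophages and neutrophils, was the largest member of that sum in all 6 samples. It stood at 10698, 16747 and 6061 in dICB and 18030.2, 23259 and 30270.4 at 200 mg, without overlap (1.09 ± 0.44, adjusted p = 0.504, 1.07 ± 0.50 without dICB replicate 1). Chil3, a chitinase-like protein and marker of the alternative macrophage state, had 393, 194 and 81.9 in dICB and 431, 1178 and 335 at 200 mg. Replicate 1 of dICB overlapped the 200 mg range, and replicate 2 at 200 mg was far above its group. Its log2 fold change was 1.53 ± 0.56 with all samples, 2.22 ± 0.56 without dICB replicate 1 (adjusted p = 0.478) and 0.78 without replicate 2 at 200 mg.

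General macrophage markers differed less. Cd68, a lysosomal glycoprotein, was at 0.32 ± 0.19, Csf1r, the receptor for the macrophage growth factor, at 0.16 ± 0.23, and Emr1, which encodes F4/80, at 0.40 ± 0.30. With dICB replicate 1 left out these 3 were at 0.22, 0.22 and 0.26. The mannose receptor Mrc1 was at 0.45 ± 0.34 and the scavenger receptor Cd36 at 0.88 ± 0.59, or 0.52 and 0.63 without that replicate. Among the arginine enzymes, Arg1 was at 0.34 ± 0.31 and Nos2 at 0.34 ± 0.35, or 0.48 and 0.76 without dICB replicate 1. These 7 were named after their values were seen. Mertk, which helps macrophages clear dead cells and is raised by glucocorticoids, held 175, 235 and 112 in dICB and 234, 225 and 241 at 200 mg (0.42 ± 0.28, 0.43 without that replicate), a tight 200 mg group that overlapped dICB replicate 2.

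Other myeloid signalling genes were among those of smallest p. Prkcd, a protein kinase C, had 423, 569 and 389 in dICB and 698, 786 and 715 at 200 mg, without overlap (0.67 ± 0.22, adjusted p = 0.365, and 0.69 within ICI10). Irf5, a transcription factor of inflammatory macrophages, had 299, 353 and 262 in dICB and 479, 489 and 382 at 200 mg (0.56 ± 0.20, adjusted p = 0.387). Ticam2, an adaptor of the lipopolysaccharide receptor, had 44.6, 52.1 and 53.6 in dICB and 76.7, 80.3 and 75.7 at 200 mg (0.63 ± 0.25). All 3 had no overlap between the groups, and their values without dICB replicate 1 were 0.62, 0.56 and 0.57.

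Antigen presentation by MHC class II was higher in 9 of 10 tested genes with and without dICB replicate 1, with medians of 0.32 and 0.19. In both versions 0 of them had an unadjusted p under 0.05 (8.50% and 5.35% of all tested genes). Ctss, a protease that trims the class II chaperone, stood at 3558, 6113 and 2568 in dICB and 6354, 6545 and 6998 at 200 mg (0.70 ± 0.40, 0.62 without dICB replicate 1). H2-Ab1, a class II chain, stood at 5313, 8755 and 4941 in dICB and 8788, 9416 and 8219.6 at 200 mg (0.47 ± 0.23, 0.38 without that replicate), with dICB replicate 2 inside the 200 mg range. Class I presentation showed no such lean, with 8 of 15 higher and a median of 0.0055. In the dendritic cell list 10 of 14 were higher (9 without dICB replicate 1), and its 3 genes higher at an unadjusted p under 0.05 with all samples (2.83% of all tested genes) were Ccl17, Ccl19 and Ccl22, described above.

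Mmp9, a gelatinase that cuts basement membrane, had the smallest p of all tested genes with all samples, while Ccl19 had it without dICB replicate 1. Mmp9 stood at 156, 74.1 and 112 normalised counts in dICB and 61.4, 31.0 and 44.7 at 200 mg, and no 200 mg sample reached the lowest dICB sample. The log2 fold change was -1.30 ± 0.30 (adjusted p = 0.267), -0.95 ± 0.30 without dICB replicate 1 (adjusted p = 0.639) and -1.28 within ICI10. At 10 mg it stood at 63.3, 54.0 and 58.3, also below every dICB sample, and under isotype at 100.4, 130.1 and 119.9.

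Vegfa, the main growth factor of blood vessels, stood at 979.6, 603 and 1165 in dICB and 614, 451 and 454 at 200 mg. Replicate 2 of dICB fell between the 200 mg samples, so the groups overlapped. Its log2 fold change was -0.85 ± 0.23 (adjusted p = 0.365) and -0.77 ± 0.27 without dICB replicate 1, and -0.25 without replicates 1 and 3, which leaves a single dICB sample. In the endothelial and angiogenesis list 15 of 18 were lower with all samples and 13 without dICB replicate 1, with medians of -0.32 and -0.25. The 200 mg samples lay wholly below dICB in 6 of the 18, where 3.78% of all genes did. With positive control factors, which moved the median of all genes to 0.17, 11 of the 18 were lower and their median was -0.14.

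Members of that list differed in direction, and Eng (0.33, 0.34 without dICB replicate 1), Cd34 (0.24 and 0.28) and Tek (0.14 and 0.25), named after their values were seen, were its 3 higher members with all samples. Vwf, the endothelial clotting factor, had 56.2, 55.4 and 93.8 in dICB and 51.1, 42.3 and 48.2 at 200 mg (-0.51 ± 0.23, -0.60 without dICB replicate 1). The receptor Tie1 had 99.8, 93.7 and 81.9 in dICB and 57.9, 43.7 and 75.7 at 200 mg (-0.63 ± 0.25, -0.55), and the Vegfa receptor Kdr 56.2, 57.8 and 67.0 in dICB and 44.3, 25.4 and 53.9 at 200 mg (-0.53 ± 0.29, -0.55), both named after their values were seen and given in the same order of fits. In Vwf, Tie1 and Kdr every 200 mg sample was below every dICB sample.

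Matrix, adhesion and survival genes are given next. In the fibroblast and matrix list 12 of 16 were lower in both versions, with medians of -0.22 and -0.22. Spp1, osteopontin, had 1341, 797 and 2456 in dICB and 627, 889 and 1238 at 200 mg (-0.74 ± 0.35, -0.82 without dICB replicate 1), and Smad3, which carries TGF-beta signals, 406, 318 and 873 in dICB and 323, 302 and 296 at 200 mg (-0.79 ± 0.31, -0.93). Alcam, an adhesion protein, had 587, 559.6 and 1175 in dICB and 579, 578 and 419 at 200 mg (-0.56 ± 0.27, -0.70). In these 3 dICB replicate 3 was by far the highest sample, and without replicate 3 the values were -0.25, -0.25 and -0.14. The integrin Itga6 had 1350.4, 1356 and 2015 in dICB and 1159, 1264 and 926 at 200 mg, without overlap (-0.50 ± 0.22, -0.57 without dICB replicate 1 and -0.29 without replicate 3), and Bcl2l1, which blocks apoptosis, 774, 578 and 755 in dICB and 572, 518 and 373 at 200 mg, also without overlap (-0.53 ± 0.22, -0.42 without dICB replicate 1).

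Among the lower genes the largest differences lay in inflammatory genes and rested on dICB replicate 1. Il1b, the cytokine interleukin-1 beta, stood at 3386, 148 and 106 in dICB and 103, 106 and 143 at 200 mg (-3.37 ± 1.01, adjusted p = 0.365). Only dICB replicate 1 was high, and without it the log2 fold change was -0.11 ± 0.29. S100a8, an abundant neutrophil protein, had 15823, 252 and 256 in dICB and 179, 402 and 403 at 200 mg, at -4.06 ± 1.29 with that sample and 0.36 ± 0.45 without it. For the neutrophil chemokine Cxcl2 the samples held 1459, 30.1 and 28.3 in dICB and 32.4, 32.4 and 21.8 at 200 mg, at -4.13 ± 1.20 and 0.00088 ± 0.29.

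The same sample alone set the values of Il6 (488 there and 13.8 to 21.2 in the other 5), the granule protein Lcn2 (1819 and 15.5 to 39.2), Il1a (654 and 31.3 to 47.2) and the lipopolysaccharide receptor Cd14 (1009.9 and 78.0 to 101). Ccl3 and Cxcl5, both leukocyte attractants, stood at 1701 and 775 there, and at 101 to 180.0 and 69.0 to 119 in the other 5. The cytokine Osm (321 and 25.2 to 42.3) and Ifitm1 (306 and 34.1 to 46.5) followed. Outside dICB replicate 1, Cxcl2, Lcn2 and Il6 lay near background, where fold changes are understated. The log2 fold changes of these 8 with that sample left out were -0.19, 0.44, -0.014, 0.016, -0.22, -0.33, 0.39 and -0.039.

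Ptgs2, the inducible prostaglandin synthase, switched sign. It stood at 1538, 69.2 and 61.1 in dICB and 116, 90.2 and 125 at 200 mg, giving -2.33 ± 0.93 with all samples. Every 200 mg sample was above dICB replicates 2 and 3, and without replicate 1 the value was 0.77 ± 0.28 (unadjusted p = 0.0152, adjusted p = 0.744). Across all tested genes the log2 fold change moved by more than 1 in 24 when that sample was left out, upward in all 24, while the median size of the move was 0.088.

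**Figure D3:**
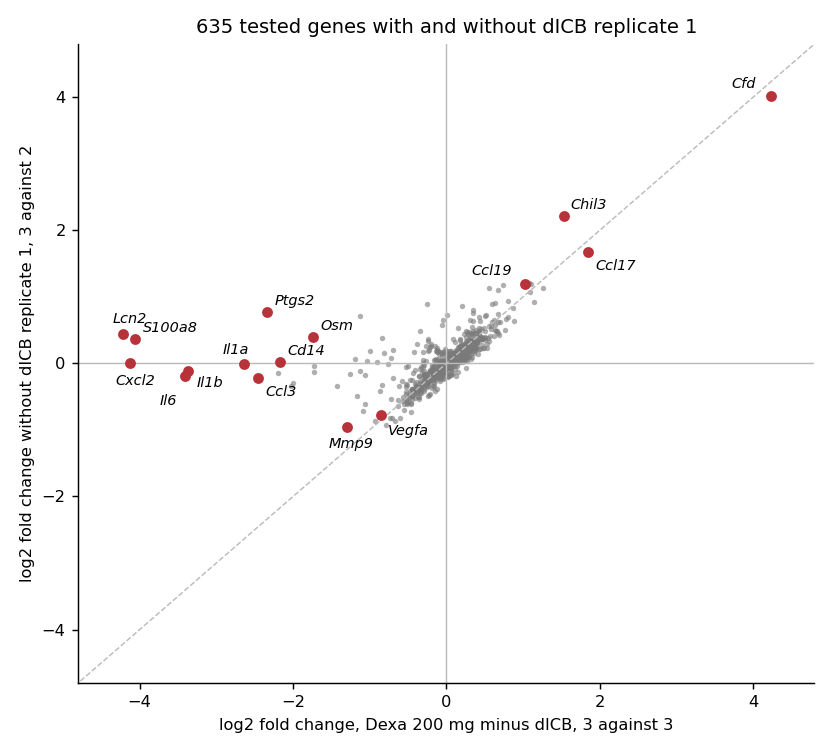
Log2 fold change of 200 mg minus dICB for the 635 tested genes with all samples (x axis) and without dICB replicate 1 (y axis), with the dashed line at equality. At the left, Il1b and Cxcl2 sit near 0 on the y axis, S100a8 and Lcn2 somewhat above it and Ptgs2 at 0.77, while Ccl17, Ccl19, Chil3 and Mmp9 keep their side.

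Lists of inflammatory genes followed that sample. In the neutrophil list 7 of 8 tested genes were lower with all samples and 3 without dICB replicate 1, the median going from -1.14 to 0.32. The summed level of its 14 panel genes was 19256 in dICB replicate 1, 729.8 and 949 in the other dICB samples and 922 to 1232 at 200 mg. Granule genes Camp, Elane, Ltf and Mpo did not reach the minimum. In the NF-kB and inflammatory list 24 of 26 were lower with all samples and 17 without that replicate, with medians of -0.42 and -0.032. 

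Genes that glucocorticoids are known to raise did not lean higher. Of 12 tested, 2 were higher with all samples and 5 without dICB replicate 1, with medians of -0.32 and -0.024, and 0 had groups that did not overlap, where 8.82% of all tested genes did, so that 0 of 12 is near the background. The 2 higher were Mertk and Il7r, the interleukin-7 receptor, which held 239, 192 and 68.5 in dICB and 160.2, 249 and 212 at 200 mg (0.30 ± 0.45, 0.65 without dICB replicate 1). Classic targets on the panel were the NF-kB inhibitor Nfkbia (903, 285 and 234 against 243, 244 and 196, -1.06 ± 0.44), the decoy receptor Il1r2 (297, 74.1 and 90.8 against 80.1, 83.1 and 83.8, -0.91 ± 0.43) and the scavenger receptor Cd163 (47.2, 22.8 and 23.8 against 29.0, 18.3 and 33.3, -0.22 ± 0.34). In each of these dICB replicate 1 was the highest of the 6 samples, and without it the values were -0.17, 0.023 and 0.25. Cd163 lay near background throughout.

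The other members are given first with all samples and then without dICB replicate 1. Tnfaip3, an NF-kB brake, went from -0.76 to -0.014, Cebpb from -0.50 to -0.034 and Cxcr4 from -0.41 to -0.10. Irak3, which blocks Toll-like receptor signals, went from -0.58 to -0.27, and Bcl6 from -0.21 to -0.11. Annexin A1, Anxa1, was at -0.070 and -0.083, and the cell cycle inhibitor Cdkn1a at -0.053 and 0.096, both changing sign with the scaling factors used. Tsc22d3, Fkbp5, Per1 and the other 5 genes of that list were not analysed here.

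Hsd11b1, the enzyme that regenerates active glucocorticoid inside cells, was not on the list but ranked among the higher genes without dICB replicate 1. It held 146, 87.2 and 101 in dICB and 213, 139 and 166 at 200 mg. Dexa 200 mg replicate 2 was below dICB replicate 1 and above both other dICB samples. The log2 fold change was 0.63 ± 0.27 (adjusted p = 0.512) with all samples and 0.91 ± 0.29 (adjusted p = 0.639) without that replicate.

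Genes that glucocorticoids are known to hold down depended on dICB replicate 1. With all samples 15 of 22 were lower, with a median of -0.62, and at an unadjusted p under 0.05 stood 11 as lower and 2 as higher (5.67% and 2.83% of all tested genes). Once it was left out 12 were lower, with a median of -0.022 and 5 higher at an unadjusted p under 0.05 against 1 lower (3.94% and 1.42% of all). Those 5 were Ccl2, Ccl7, Ccl11, Nos2 and Ptgs2, and the 1 was Mmp9. Cxcl1, a neutrophil chemokine named after its value was seen, went from -1.99 to -0.30. It lay above the background limit in 1 dICB sample, replicate 1, and in 0 at 200 mg, so the -0.30 compares levels near background.

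**Figure D4:**
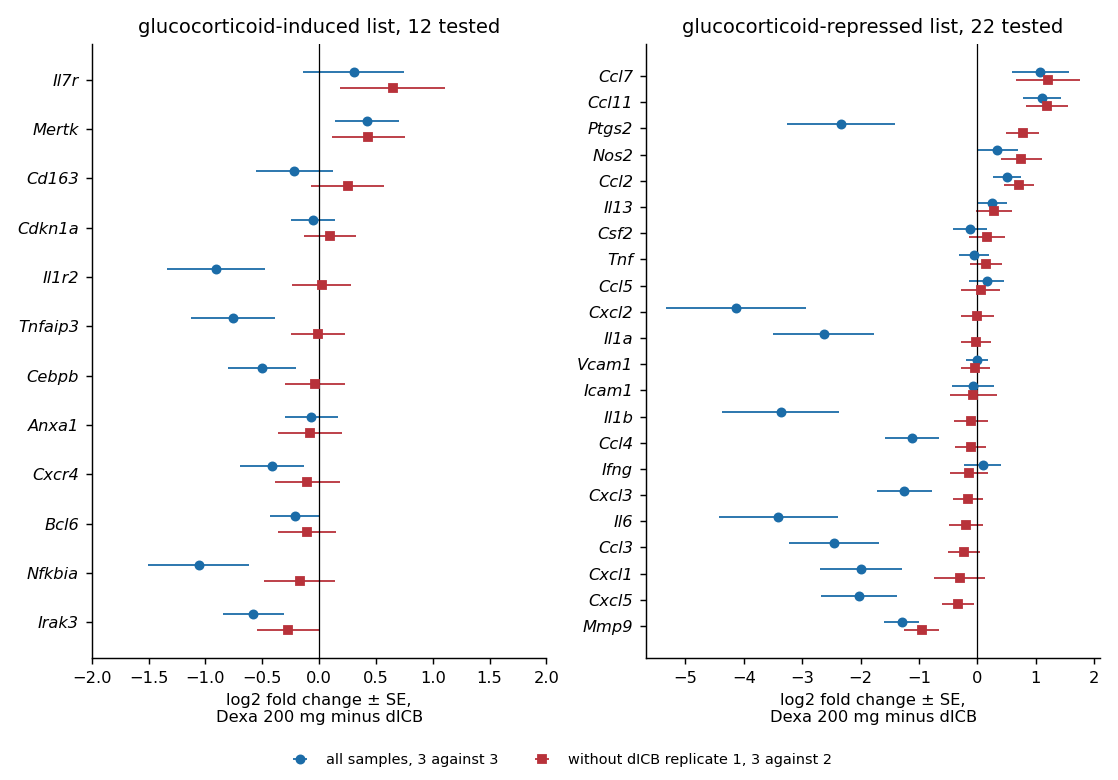
Log2 fold change of 200 mg minus dICB (x axes, on different ranges) with its SE for the tested genes (rows) of the glucocorticoid-induced list (left) and the glucocorticoid-repressed list (right), with all samples (blue circles) and without dICB replicate 1 (red squares). Most members sit near 0 without that sample, with Mmp9 lowest and Ccl7 and Ccl11 highest on the right.

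Genes of the antibody targets were measured in every sample. Ctla4, the inhibitory receptor of T cells, had 84.7, 68.4 and 52.1 in dICB and 32.4, 40.9 and 52.8 at 200 mg. Dexa 200 mg replicate 3 just exceeded dICB replicate 3, and the other 200 mg samples were lower than all dICB samples. The log2 fold change was -0.72 ± 0.25 (adjusted p = 0.387), -0.54 ± 0.27 without dICB replicate 1 and -0.92 within ICI10. Pdcd1, which encodes PD-1, spread widely, at 267, 376 and 199.6 in dICB and 168, 310.0 and 366 at 200 mg (-0.0034 ± 0.36, -0.044 without dICB replicate 1), and its sign changed with the scaling. Cd274, which encodes the ligand PD-L1, had 1916, 1506 and 1622 in dICB and 1201, 1702 and 1229 at 200 mg (-0.29 ± 0.27, -0.17 without dICB replicate 1), with overlapping groups. Over the checkpoint list 7 of 22 were higher, or 9 without that replicate.

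T cell and cytotoxic genes leaned higher with all samples and less so without dICB replicate 1. In the T cell list 15 of 20 were higher with all samples and 12 without dICB replicate 1, with medians of 0.26 and 0.052. Cd5, a T cell surface protein above background in 1 dICB sample and in all 3 at 200 mg, had 19.6, 44.0 and 29.8 in dICB and 47.7, 42.3 and 60.8 at 200 mg (0.68 ± 0.28, 0.43 without that replicate), and Cd8a, of killer T cells and named after its value was seen, 56.2, 122 and 81.9 in dICB and 95.4, 113 and 169 at 200 mg (0.53 ± 0.40, 0.29). Against these, 5 of the 20 were lower with all samples and 8 without dICB replicate 1. With all samples the 200 mg samples lay wholly above dICB in 0 members and wholly below in 0. Without dICB replicate 1 they lay so in 0 and 1 members (9.76% and 6.93% of all tested genes). The member wholly below was Cd28, also named after its values were seen. Within ICI10 11 of the 20 were higher, with a median of 0.048. In the cytotoxic effector list 9 of 11 were higher, or 6 without dICB replicate 1, with medians of 0.14 and 0.018. Its member of smallest p with all samples was Ctsw, a protease of cytotoxic cells, at 0.49 ± 0.37 (unadjusted p = 0.207 by edgeR), or 0.23 without that replicate. There the smallest p was that of Fasl, a death ligand, which was lower at -0.38 ± 0.23 (unadjusted p = 0.123 by edgeR), against -0.12 with all samples, a sign that turned under several alternatives. Of 6 regulatory T cell genes 4 and 3 were higher.

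In the natural killer list the members of smallest p in the fits with and without dICB replicate 1 differed in direction. Being on that list does not make Klra17 a marker of natural killer cells. Klra17, of the Ly49 receptor family, had 33.9, 15.5 and 23.8 in dICB and 10.2, 12.7 and 11.5 at 200 mg, without overlap (-1.09 ± 0.36, adjusted p = 0.365, -0.71 without dICB replicate 1). All 3 of its 200 mg samples were below the background limit, as were 2 of its dICB samples, and Ly49 probes may pick up close relatives. Klra7, of the same family, stood at 30.3, 14.7 and 16.4 in dICB and 23.9, 24.0 and 51.6 at 200 mg (0.67 ± 0.44, and 1.11 ± 0.47 without dICB replicate 1 with an unadjusted p of 0.0349 by edgeR). It was above background in 1 sample of each group, and its groups overlapped only through dICB replicate 1. Il11, not on that list but a cytokine of the interleukin-6 family, was, like Klra17, below the background limit in every 200 mg sample. It stood at 30.3, 11.4 and 22.3 in dICB and 11.1, 8.45 and 10.3 at 200 mg (-1.06 ± 0.33, -0.61 without dICB replicate 1). Over the natural killer list 8 of 13 were higher, or 7 without dICB replicate 1. For B cells and plasma cells 4 of 9 were higher in both versions, and for mast cells 1 of 5 and 3 of 5.

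**Figure D5:**
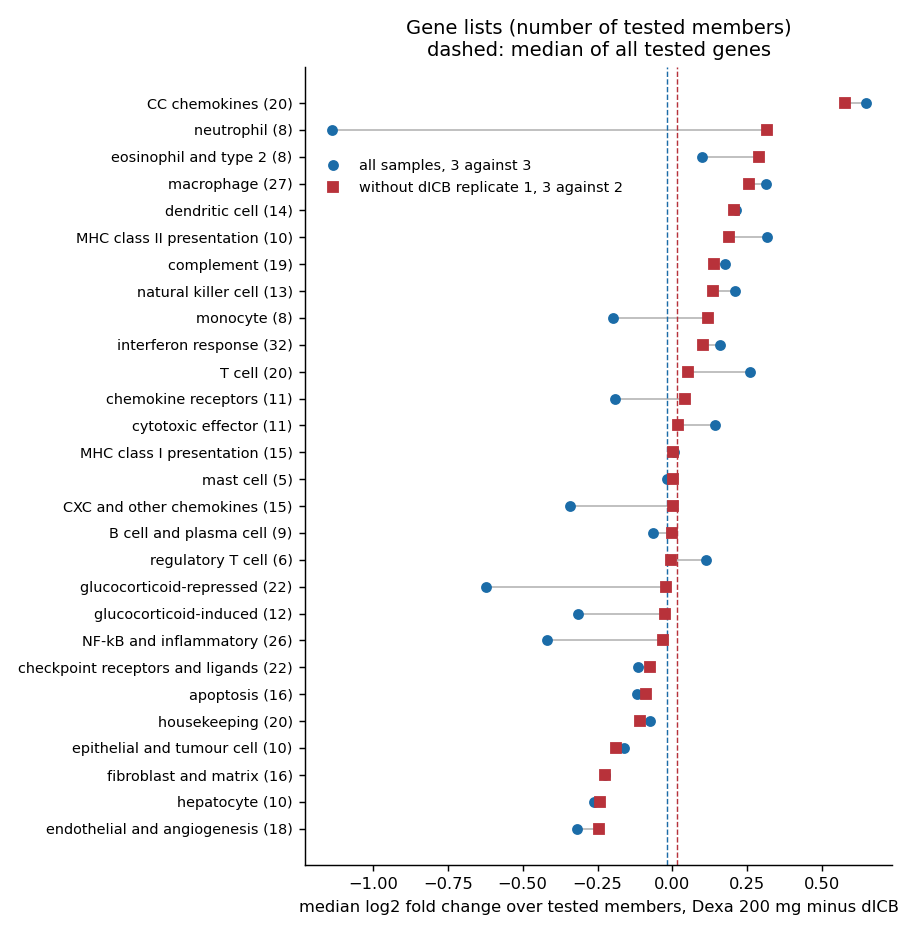
Median log2 fold change of 200 mg minus dICB over the tested members (x axis) of each gene list (rows, with the number tested), with all samples (blue circles) and without dICB replicate 1 (red squares), and dashed lines at the medians of all tested genes. CC chemokines are highest in both versions, and the neutrophil list moves most between them.

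Between the doses, 0 of the genes named here passed when 200 mg was set against 10 mg in the same edgeR model (smallest adjusted p 0.299). Ccl11 held 253, 130.3 and 105 at 10 mg, Prkcd 648, 396 and 513 and Ccr2 531, 332 and 314, each overlapping the dICB range of the same gene. For Lyz2 the 10 mg samples held 16082, 11586 and 10058, inside the dICB range and below every 200 mg sample. Vegfa at 10 mg held 809.7, 723 and 735, above every 200 mg sample. The comparisons of either dose with dICB share the dICB samples, so replicate 1 of dICB bears on both.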

How the data were processed

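The deposited values are whole-number counts per probe, not normalised as far as the values show, for 770 genes with 6 positive and 8 negative control probes. Per the labels' protocols, RNA came from formalin-fixed, paraffin-embedded tumours by a Qiagen miRNeasy FFPE kit, while no source used here gives the counting instrument, panel or software. Gene names are printed as deposited (756 were current symbols in RefSeq's GRCm38.p6 table, 8 synonyms, 6 neither). The analysis used edgeR 4.0.16 (R 4.3.3) on the 635 genes averaging 20 counts or more (135 were not tested), with TMM scaling and one quasi-likelihood model of 4 group means over 12 samples (8 residual degrees of freedom, 12.4 after moderation), two-sided, with Benjamini-Hochberg adjustment over the 635 genes. The fit without dICB replicate 1 used the same genes. Each SE was obtained by dividing the fold change (log2) by the root of its F statistic. Normalised counts are scaled to the mean effective library of 357620. No background was subtracted, which understates fold changes of dim genes, and intervals of counting error were not used because samples of 1 group differed far beyond it.

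Gene lists came from textbook roles and are described by counts and medians, with no list test. Named genes were those of smallest p in each direction (12 with all samples, 8 without dICB replicate 1), the member of smallest p of each list, the 10 that moved most without that replicate, all glucocorticoid-induced genes, Pdcd1, Ctla4 and Cd274. Some are left out of the text for length, and others are said to be named after their values were seen. The members and lists were chosen with earlier results of these data known. Alternatives were DESeq2 1.42.0, limma 3.58.1 on background-subtracted values, other scaling factors, filters and moderation, the label code, the replicate number as a block, and leaving out samples. The fitting code was tested on simulated data.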

Additional observations from a re-analysis of the deposited data

How the results depend on the processing

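The precision is limited by 3 and 2 samples a group, by 1 dICB sample rich in neutrophil genes and another high in Apoe and Smad3, and by genes near background, whose fold changes are understated. Dexa 200 mg replicate 3 is the only compared sample with another code, and nothing shows whether samples of a group were separate animals. In the comparison of all samples 0 genes passed in edgeR, against 3 in DESeq2, 1 with the replicate number as a block (Ccl17, 1.80) and 0 to 8 when 1 sample was left out, with 8 without dICB replicate 2. Without dICB replicate 1 the counts were 3 in DESeq2 and 0 to 1 when 1 further sample was left out. In the remaining alternatives 0 passed. Genes at an unadjusted p under 0.05 numbered 20 within ICI10, 31 with limma on background-subtracted values and 32 with the compared groups alone, against 54, and 123 without dICB replicate 2. Without dICB replicate 1 they numbered 17 within ICI10, 52 without 10 mg replicate 2, 97 without dICB replicate 2 and 15 without dICB replicate 3, against 34. Deviations of same-numbered samples from their group means correlated at -0.094, 0.048 and -0.21. Such deviations sum to 0 within a group, so these correlations cannot decide whether the samples were paired. The sample titles name no pairing, and the block is given only as an alternative.

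Lists with a median above 0 numbered 12 of 28, or 19 with positive control factors, which moved the median of all genes by over 0.1. Without dICB replicate 1 they numbered 16, and 10 to 24 over all alternatives. Among these were 10 within ICI10 and 10 to 17 when 1 further sample was left out. Of 111 results, which include the list counts just given beside the gene values, 91 kept their sign under every alternative run. Among their 1967 values 48 turned, all of them gene values, since a list count has no sign to turn. Values that turned were as follows. With housekeeping factors Anxa1 was at 0.018, Cd80 at 0.012, Cdkn1a at 0.026 and Pdcd1 at 0.12. With positive control factors Anxa1 was at 0.12, Cd80 at 0.15, Cdkn1a at 0.14, Fasl at 0.065 and Pdcd1 at 0.15. With limma Cd163 was at 0.021, Cd80 at 0.19 and Fasl at 0.25. With the code as covariate Anxa1 was at 0.12, Cdkn1a at 0.045, Itgam at -0.0043 and Pdcd1 at 0.075, and within ICI10 Anxa1 was at 0.065 and Itgam at -0.16. Itgam was at -0.0086 in DESeq2 and -0.016 with a minimum of 50, Pdcd1 at 0.011 without a filter and Cd80 at 0.018 with the block. Leaving out 1 sample gave these ranges of log2 fold change: Anxa1 -0.29 to 0.065, Apoe -0.73 to 0.20, Ccl5 -0.013 to 0.34, Cd14 -2.66 to 0.016, Cd163 -0.43 to 0.25, Cd80 -0.32 to 0.58, Cd81 -0.43 to 0.044, Cdkn1a -0.19 to 0.096, Cmah -0.056 to 0.86, Cxcl2 -4.72 to 0.00088. It also gave Fasl -0.38 to 0.22, Il1r2 -1.25 to 0.023, Il7r -0.083 to 0.65, Itgam -0.30 to 0.72, Lcn2 -4.81 to 0.44, Osm -2.23 to 0.39, Pdcd1 -0.24 to 0.27, Ptgs2 -2.90 to 0.77, S100a8 -4.68 to 0.36, and for Spp1 without dICB replicate 1 -1.43 to 0.20. The cause was not tested in any of these beyond the samples named.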

Other observations

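Complement genes were mostly higher at 200 mg. Of 19 tested, 13 were higher with all samples and 13 without dICB replicate 1, with medians of 0.18 and 0.14, and 0 passed. C3, the central component, stood at 4008, 2179.6 and 3416 normalised counts in dICB and 4498, 4037 and 5169 at 200 mg, without overlap (0.51 ± 0.23, or 0.73 ± 0.25 without dICB replicate 1). The gap between dICB replicate 1 and 200 mg replicate 2 was very small. Cfd, the fat-cell protease adipsin, stood at 16.9, 37.5 and 35.7 in dICB and 1587, 54.9 and 42.5 at 200 mg. A single sample, 200 mg replicate 1, gave the size of that difference, which was 4.23 with it and 0.70 without it. Single high samples were also seen in the other groups, with Cfd at 30.3, 18.6 and 1510 at 10 mg and 25.3, 225.5 and 37.0 under isotype.

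Interferon-response genes were higher in 24 of 32, or 23 without dICB replicate 1, with a median of 0.16 and 0 past the threshold. Genes under the minimum for testing numbered 135. Of these, 12 were above the background limit in at least 1 sample, and 0 were above it in all samples of one compared group and none of the other.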
